A study of Arabidopsis thaliana with 10 samples.

Results

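*AINTEGUMENTA* (*ANT*, AT4G37750), 6 genes named for their likeness to it (*AIL1*, *AIL5*, *AIL6*, *AIL7*, *PLT1* and *PLT2*) and 3 genes of the *DORNRÖSCHEN* type (*DRN*, *DRNL* and *PUCHI*) were examined for acetylation of lysine 27 of histone H3 (H3K27ac) during flower development. These 10 genes were chosen by name, out of 27444 protein-coding genes on the 5 nuclear chromosomes, and each was given the peaks whose summit lay in the gene or up to 1 kb upstream of its start. ChIP-seq with an antibody against H3K27ac was done on 8 libraries from *Arabidopsis thaliana* inflorescences, with 2 replicates at each of 4 stages. The stages were inflorescence meristem tissue before induction (S0, day 0), stage 2 flowers after 2 days (S2), stage 4-5 flowers after 4 days (S4) and stage 7-8 flowers after 8 days (S8), and 2 input libraries labelled stage 2 and stage 4 served as control. Every library came from the same pAP1::AP1-GR ap1 cal line in the Ler background. In this line *AP1* and its relative *CAL* are both mutated, so that inflorescences make meristems in place of flowers. The *AP1* promoter drives a fusion of AP1 to a hormone-binding domain, and daily dexamethasone lets flowers start together, but only where that promoter is active. Inflorescence tissue was collected in bulk, with all of its cell types.

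The files hold 1 list of peaks per stage, and these held 11583 (S0), 8608 (S2), 9114 (S4) and 9235 peaks (S8). Each list was called by the authors on both replicates together, so no value per replicate, no SD and no test between stages could be had, and the lists do not give the depth of a library. Each peak carries a fold enrichment over the input at its summit and a −log10 p. A percentile below is the share of the peaks of that same list with a lower value, and it was used because amounts cannot be compared between lists that were called separately. A gene without a peak may still carry signal under the threshold of the caller. It may also have had a called peak that was dropped for low reproducibility between replicates. In these whole tissues, fewer cells that carry the mark and less of the mark in each cell cannot be told apart.

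H3K27ac is laid down by acetyltransferases at transcribed genes, and in plants it lies mostly just downstream of the transcription start site (TSS). Proteins of the AP2 family bind DNA through the AP2 domain, which contains a short stretch called the YRG element. ANT and the AIL proteins have a pair of AP2 domains joined by a linker. They keep cells dividing in young organs and meristems: *ANT* promotes the growth of floral organs and ovules, *AIL6* acts with *ANT* in flower initiation and organ growth, *AIL5* and *AIL7* act in shoot meristems and phyllotaxis, and *PLT1* and *PLT2* are best known for the root stem cell niche. DRN, DRNL and PUCHI have a single AP2 domain. *DRN* and *DRNL* mark incipient organs and act in embryo and floral organ formation, and *PUCHI* acts in lateral root formation and in the identity of the floral meristem.

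The bases on which the member peaks were centred are shown because they place each summit within its gene. The reference sequence (TAIR10 coordinates) is written 5′ to 3′ on the strand of the gene, 101 bases long with the summit at position 51, and capitals mark coding bases.
ANT at S0, chr4:17740142-17740242, plus strand: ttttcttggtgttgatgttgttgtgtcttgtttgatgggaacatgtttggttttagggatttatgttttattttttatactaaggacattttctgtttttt
ANT at S2, chr4:17739955-17740055, plus strand: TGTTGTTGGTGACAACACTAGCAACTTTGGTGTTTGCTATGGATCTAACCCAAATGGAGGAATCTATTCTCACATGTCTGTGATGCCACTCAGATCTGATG
ANT at S4, chr4:17740432-17740532, plus strand: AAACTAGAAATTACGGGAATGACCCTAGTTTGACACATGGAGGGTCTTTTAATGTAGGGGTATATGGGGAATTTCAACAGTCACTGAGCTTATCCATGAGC
ANT at S8, chr4:17740698-17740798, plus strand: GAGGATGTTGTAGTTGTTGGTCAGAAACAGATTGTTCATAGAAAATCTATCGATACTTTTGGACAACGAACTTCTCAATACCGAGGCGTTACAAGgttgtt
AIL5 at S0, chr5:23255580-23255680, minus strand: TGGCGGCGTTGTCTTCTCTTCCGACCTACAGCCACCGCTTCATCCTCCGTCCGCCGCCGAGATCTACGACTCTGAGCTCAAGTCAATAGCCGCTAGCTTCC
AIL7 at S0, chr5:26187274-26187374, plus strand: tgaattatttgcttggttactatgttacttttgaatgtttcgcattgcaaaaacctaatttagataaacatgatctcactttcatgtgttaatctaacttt
The *ANT* summits of S2 and S4 lay in coding sequence along all 101 bases, that of S8 ended in 95 coding bases followed by the start of an intron, and that of S0 lay wholly in an intron. GC content was 28.7% in the intronic *ANT* window at S0, and 42.6%, 41.6% and 38.6% in the *ANT* windows at S2, S4 and S8. The *AIL7* window, also intronic, had 27.7% GC, and the coding *AIL5* window had 59.4%. No 32-base word of the 201 bp about any of the 6 summits occurred more than once in the genome.

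Of the 10 genes, 3 carried a peak at S0, which is below the 43.8% of all protein-coding genes that did. At S2, S4 and S8 only 1 of the 10 did, against 34.5%, 36.4% and 36.6% of all genes. That gene was *ANT*, which was also the only one of the 10 with a peak at all 4 stages, a pattern found at 26.7% of all genes. *AIL5* and *AIL7* were marked at S0 only, 2 of 10 against 4.65% of all genes. The other 7 genes, *AIL1*, *AIL6*, *PLT1*, *PLT2*, *DRN*, *DRNL* and *PUCHI*, had no peak at any stage, against 51.6% of all genes. The 3 genes with a peak all belong to the 7 with a pair of AP2 domains, a share of 42.9% beside 48.4% for the whole genome. The 3 genes with a single domain had none, like 51.6% of all genes. These single-domain genes were also short (1014 to 1515 bp), and domain number was not tested apart from length. No count of 10 genes chosen by name was tested, and the S0 list is also the longest. When each list was held to the 8608 peaks with the highest −log10 p, the length of the S2 list, the *AIL7* peak was lost and those on *AIL5* and *ANT* were kept. That setting was chosen after seeing the data.

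**Figure D1:**
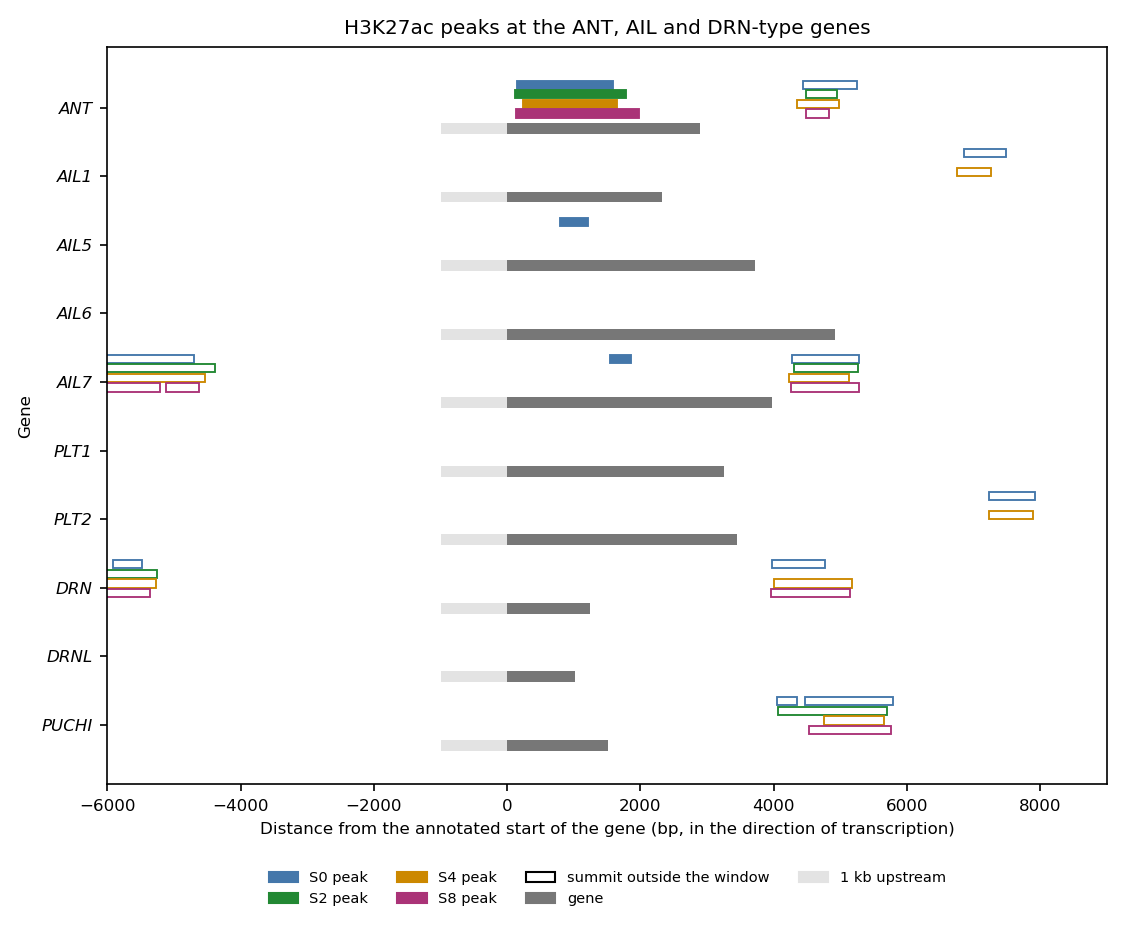
H3K27ac peaks about the 10 genes, by distance in bp from the annotated start in the direction of transcription (horizontal axis), with 1 row per gene. Filled bars are peaks whose summit lies in the gene or up to 1 kb upstream and open bars are other peaks, coloured by stage. *ANT* has a filled bar at all 4 stages, *AIL5* and *AIL7* at S0 only, and the other 7 genes have none.

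*ANT* lies on the plus strand of chromosome 4 from 17739514 to 17742407, with 8 exons over 2894 bp. At S0 its peak ran from 17739656 to 17741105, at S2 from 17739638 to 17741297, at S4 from 17739756 to 17741167 and at S8 from 17739641 to 17741488. The peak thus began in the 5′ UTR within exon 1 at every stage and ended well inside the transcribed part, in intron 3 at S0, coding exon 5 at S2, intron 4 at S4 and coding exon 6 at S8. It covered 50.1%, 57.4%, 48.8% and 63.9% of the gene at S0, S2, S4 and S8. No other protein-coding gene was touched by it.

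The left edge of the *ANT* peak varied by 118 bp over the 4 stages and its right edge by 383 bp. The bases shared by all stages ran from 242 to 1591 bp after the TSS, 1350 bp in all, of which 949 bp were coding, 375 bp were intron and 26 bp were 5′ UTR. This shared region held 56.9% of the coding sequence of *ANT*. Between any 2 stages the overlap was 76.4% to 89.5% of the bases covered in either.

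The summit differed more in place than either edge, by 743 bp over the stages. It lay 678 bp after the TSS in intron 1 at S0, 491 bp after it in coding exon 1 at S2, and in coding exon 2 at S4 (968 bp) and S8 (1234 bp). The median summit of a peak on a gene lay 388, 377, 379.5 and 379 bp from the TSS at S0, S2, S4 and S8. The *ANT* summit was thus farther from the TSS than that of most peaks at each stage, at the 83.1, 71.0, 93.4 and 95.6 percentile of distance. The codons for the first 4 residues of the YRG element (YRGV) began 1262 bp after the TSS for the first AP2 domain and 1990 bp after it for the second. The first lay inside the peak at every stage, and the second lay beyond its right edge at every stage. The error of a summit position is unknown, since no replicate has a summit of its own.

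**Figure D2:**
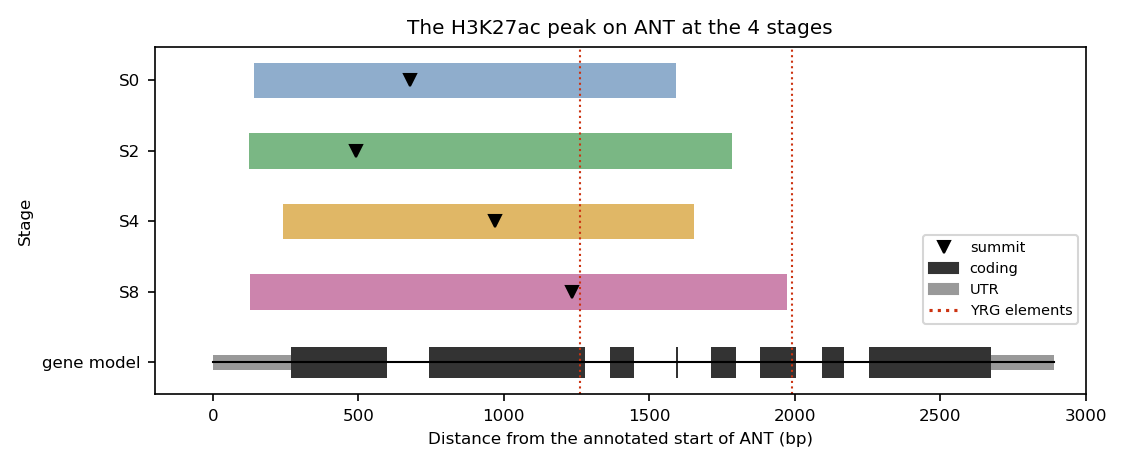
The peak on *ANT* at S0, S2, S4 and S8, by distance in bp from the annotated start (horizontal axis). Bars span each peak, triangles mark summits, the lowest row is the gene model, and dotted lines mark the starts of the YRG elements. The left edges differ by 118 bp, and the summits lie 678, 491, 968 and 1234 bp from the start.

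The *ANT* peak was among the wider peaks of each list. In order from S0 to S8 it was 1450, 1660, 1412 and 1848 bp wide, where the median peak was 749, 716, 769 and 761 bp wide. These widths were at the 94.1, 97.8, 93.1 and 98.1 percentile. Peaks at least as wide numbered 680, 189, 628 and 172 in the same order. Among the 7334 genes with a peak at all 4 stages, the *ANT* peak was wider than the widest peak of 89.7%, 97.3%, 89.8% and 97.7% of them. Such width was not particular to *ANT*: the peaks on *MP* (1932, 2324, 2447 and 2482 bp), *PID* (1898, 1878, 1873 and 1942 bp) and *PHB* (1587, 2024, 1963 and 1960 bp), genes described further on, were wider at every stage.

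**Figure D3:**
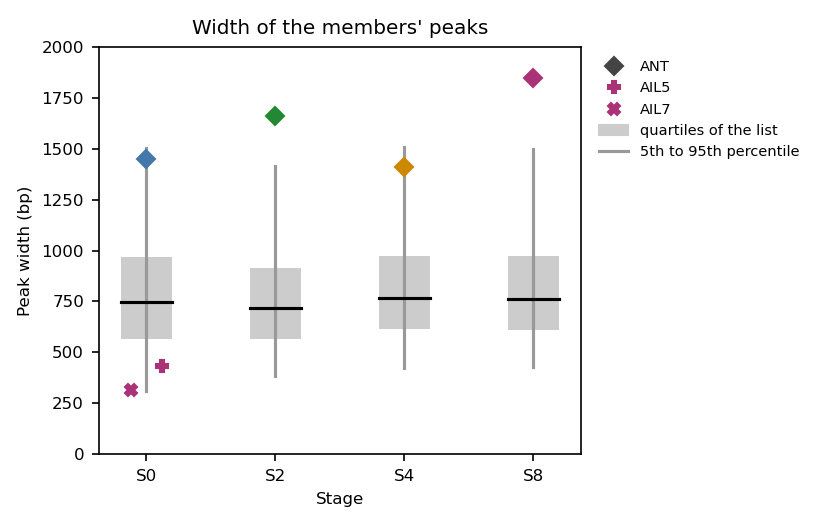
Width in bp (vertical axis) of the peaks on *ANT* at S0, S2, S4 and S8 (diamonds) and on *AIL5* and *AIL7* at S0 (plus and cross). Grey boxes are the quartiles of all peaks of the list with the median as a black line, and grey lines run from the 5th to the 95th percentile. The *ANT* peak is 1412 to 1848 bp wide, and the other peaks are 431 bp and 317 bp wide.

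The fold enrichment of the *ANT* peak was 3.40, 2.84, 3.51 and 3.96 from S0 to S8. Within each list this was the 57.2, 34.5, 77.5 and 86.2 percentile, so that by this ranking the peak was lowest at S2 and highest at S8. The −log10 p was 31.0, 20.6, 32.8 and 46.8 at S0, S2, S4 and S8. By this value the peak was at the 53.3, 49.9, 72.9 and 86.0 percentile, with a smaller step between S0 and S2. Among the 7334 genes with a peak at all stages, *ANT* exceeded 34.8%, 23.7%, 69.0% and 80.8% by fold enrichment of the strongest peak. *ANT* was therefore below the median of those genes at S0 and S2 and above it at S4 and S8. Ranked by fold enrichment times width, the peak was at the 86.7, 91.2, 91.8 and 97.1 percentile, so that the order of S0 and S2 turned round and the difference between S2 and S8 was far smaller.

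From S2 to S8 the *ANT* percentile by fold enrichment changed by 51.7 points. Of 8240 genes with a peak at both stages, 265 (3.22%) changed by at least as much upward, and the median change was 0.87 points. By −log10 p the change was 36.0 points, and 8.59% of the genes had at least that. Most of the difference fell between S2 and S4, with 43.0 points by fold enrichment and 5.59% of 8265 genes at least as high. Between S4 and S8 the step was 8.67 points, which 32.3% of 8561 genes reached. Between S0 and S2 the difference was -22.7 points by fold enrichment and -3.38 points by −log10 p, and the median of 8883 genes was -5.19 and -5.39 points. From S0 to S8 the *ANT* percentile by fold enrichment rose by 29.1 points, and 8.47% of 9308 genes rose at least as much. S2 and S8 were the stages where *ANT* ranked lowest and highest, and a gene already high at S2 has little room to rise. The median gene with a peak at all 4 stages was at the 60.6 percentile at S2, too high to rise by 51.7 points. The *ANT* percentile by width changed by 0.33 points between S2 and S8. These are shares of genes within the same lists and not a test, since genes are not replicates and each stage is 1 list.

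The next peak downstream of *ANT* lay on *SQE3*, which encodes a squalene epoxidase, with its summit 1689 to 1834 bp beyond the end of *ANT*. Its percentile by fold enrichment was 88.7, 70.5, 61.6 and 68.9 at S0, S2, S4 and S8. *SQE3* ranked above *ANT* at S0 and S2 and below it at S4 and S8. The 2 genes whose percentiles by fold enrichment over the 4 stages were nearest to those of *ANT* were AT4G30000 and AT4G30010, at a Euclidean distance of 5.26 points. These neighbours share the same peaks, at the 60.5, 33.4, 78.7 and 82.5 percentile.

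**Figure D4:**
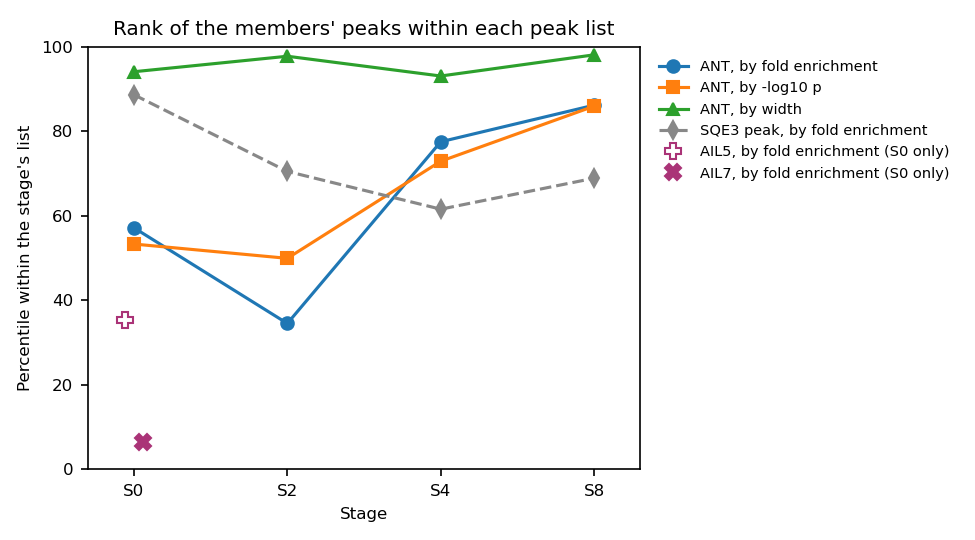
Percentile within the peak list of the stage (vertical axis) at S0, S2, S4 and S8 (horizontal axis) for *ANT* by fold enrichment, −log10 p and width, for the neighbouring *SQE3* peak, and for *AIL5* and *AIL7* at S0. By fold enrichment *ANT* lies at the 57.2, 34.5, 77.5 and 86.2 percentile, while by width it stays between the 93.1 and the 98.1 percentile.

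*AIL5* (AT5G57390) occupies bases 23252989 to 23256703 of chromosome 5 and is read from the minus strand. Its single peak, at S0, ran from 23255485 to 23255915 and was 431 bp wide, with the summit 1073 bp after the TSS in coding exon 2. The fold enrichment was 2.91 and the −log10 p was 22.7, at the 35.4 and 35.0 percentile of the S0 list. *AIL7* (AT5G65510) occupies bases 26185593 to 26189571 of the same chromosome and is read from the plus strand. Its S0 peak ran from 26187137 to 26187453, 317 bp, with the summit 1731 bp after the TSS in intron 4. The fold enrichment was 2.34 and the −log10 p was 12.1, at the 6.48 and 1.80 percentile, so that this was among the weakest peaks of its list.

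Both peaks were narrow and lay far into the gene, in contrast to a typical peak. They covered 11.6% of *AIL5* and 7.97% of *AIL7*, and their widths were at the 11.3 and 5.30 percentile. Their summits were at the 92.7 and 97.0 percentile of distance from the TSS. For comparison, the highest peaks of the 1276 genes marked at S0 only, taken in each ranking, had a median percentile of 21.1 by fold enrichment. By width it was 19.1. *AIL5* lay above 74.8% of these genes by fold enrichment and *AIL7* above 15.4%. Genes marked at S0 only were thus mostly low in the S0 list.

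The 7 genes without a peak are spread over 3 chromosomes. *AIL1* (AT1G72570) lies on chromosome 1 from 27331381 to 27333698, *PLT2* (AT1G51190) on chromosome 1 from 18977176 to 18980618, *PLT1* (AT3G20840) on chromosome 3 from 7300444 to 7303693, and *AIL6* (AT5G10510) on chromosome 5 from 3315401 to 3320323. *DRN* (AT1G12980, chromosome 1 from 4429718 to 4430965), *DRNL* (AT1G24590, chromosome 1 from 8714365 to 8715378) and *PUCHI* (AT5G18560, chromosome 5 from 6164526 to 6166040) have a single exon each. No window just missed a peak at these 7 genes. The nearest summit lay 2704 to 3914 bp outside the window of *PUCHI* and 2862 to 4623 bp outside that of *DRN*, depending on the stage. For the others it was 4068 bp or more away, and for *PLT2* up to 22161 bp. The closest summits outside any window belonged to *AIL7*, where the summit of a peak on AT5G65520 lay 594 to 630 bp beyond the end of the gene. That neighbour was at the 99.2, 94.6, 97.3 and 99.3 percentile by fold enrichment at S0, S2, S4 and S8. Wider windows, a window of the gene alone, placement by the midpoint or the nearest TSS, and any overlap of a peak with the window all left the same members with a peak at each stage.

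Every member had a wider gap to the next gene upstream than the median gene, a trait that the choice by name did not use. The gap to the next gene upstream was 1349 to 14001 bp, with a median of 5406 bp, while the median of all protein-coding genes was 943 bp. Genes with a peak at any stage had a shorter median gap (583 bp) than genes without one (1262 bp). Among the members, those with a peak had gaps of 11604 bp (*ANT*), 5281 bp (*AIL5*) and 1482 bp (*AIL7*). Members without one had both the shortest (*AIL1*, 1349 bp) and the longest gap (*PLT1*, 14001 bp). A link between gap and peaks was not tested. Length was not shared. The 7 *ANT* and *AIL* genes were 2318 to 4923 bp long, and *DRN*, *DRNL* and *PUCHI* were 1014 to 1515 bp long, beside a median of 2078 bp for all genes. Genes with a peak had a median length of 2476 bp, against 1673 bp without. GC content over the first kb was 47.7% in *DRN*, 46.4% in *DRNL* and 44.8% in *PUCHI*, and 34.9% to 39.9% in the 7 others, beside a median of 38.8% for all genes. In the coding sequence, the letters YRGV occurred at 2 places in each of the 7 ANT and AIL proteins and at 1 place in DRN and DRNL. PUCHI held no exact match to these 4 letters.

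Auxin is a known regulator of several of these genes, and the transcription factor MONOPTEROS (MP) binds auxin response elements. The motifs TGTCTC and TGTCGG were searched on both strands from 250 bp before to 50 bp after the start of each gene. TGTCTC was found at *AIL1*, *AIL7* and *PUCHI*, 3 of 10 against 14.2% of all protein-coding genes, and TGTCGG at *AIL5*, *AIL6* and *PLT1*, 3 of 10 against 5.12%. The matches are given with the strand of the gene and the motif in capitals, which reads CCGACA where the motif lies on the opposite strand.
AIL1 upstream, chr1:27331202-27331231, plus strand: cgccacctgtttTGTCTCaaatcttttttc
AIL5 upstream, chr5:23256778-23256807, minus strand: aaatatatacatCCGACAttctaattgttt
AIL6 upstream, chr5:3315177-3315206, plus strand: tcaaaggtcatgTGTCGGacaaattgtgta
AIL7 upstream, chr5:26185448-26185477, plus strand: tctctcactcacTGTCTCacatatctctac
PLT1 upstream, chr3:7300251-7300280, plus strand: tgaggtttaaatCCGACAaaatacgttggt
PUCHI upstream, chr5:6166045-6166074, minus strand: tatcaagctcatTGTCTCtctatttataac
One or the other motif was thus in 6 of the 10 windows, beside 18.7% of all genes. The 3 genes with an H3K27ac peak were *AIL5* and *AIL7*, each with 1 of the motifs, and *ANT*, whose window held none. A match is only a match of letters, no count of matches was tested, and bases farther from the start were not searched. For *AIL1* the annotated start is that of the coding sequence.

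A larger share of 11 other genes with an AP2 domain than of the members carried peaks, a difference that was not tested. The 11 were picked by hand and do not stand for all genes with this domain. Of these relatives, 6, 5, 6 and 5 had a peak at the 4 stages in order, or 54.5%, 45.5%, 54.5% and 45.5%. The shares of all protein-coding genes were 43.8%, 34.5%, 36.4% and 36.6%. At all 4 stages 5 of the 11 had one, beside 26.7% of all genes. *WRI1*, *WRI3* and *WRI4*, which regulate fatty acid and cutin synthesis, the floral organ identity gene *AP2* and the floral repressor *TOE2* had one at all 4 stages. *TOE1*, another repressor of flowering, had one at S0 and S4. The embryo regulator *BBM*, which like *ANT* belongs to the AIL group, and *LEP*, *TOE3*, *SMZ* and *SNZ* had none. *AP2* was at the 91.9, 83.7, 95.6 and 91.3 percentile by fold enrichment at S0, S2, S4 and S8, and *WRI4* at the 91.2, 93.7, 98.1 and 96.9 percentile. *TOE2* was at the 37.5, 42.3, 38.7 and 35.1 percentile. The percentiles of these 3 genes varied less over the stages than that of *ANT*.

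Of 18 genes known to act with the members, 13 had a peak at some stage, beside 48.4% of all genes. By stage, 11 had a peak at S0 and S2 each, 9 at S4 and 10 at S8, and 8 had one at all stages, beside the shares of all genes given above (43.8%, 34.5%, 36.4%, 36.6% and 26.7%). The list was picked by hand and not tested. The 8 were *MP*, the auxin response factor upstream of *ANT* and *AIL6*, the corepressor gene *LUG*, the cyclin gene *CYCD3;1*, the HD-ZIP genes *PHB*, *PHV* and *REV*, the kinase gene *PID*, which directs auxin transport, and *BOP2*, which acts with *PUCHI* in the flower. *MP* was at the 71.5, 84.7, 82.2 and 64.3 percentile by fold enrichment at S0, S2, S4 and S8, and *PID* at the 73.1, 93.0, 93.1 and 92.2 percentile. *LUG* was at the 62.3, 66.1, 82.0 and 2.24 percentile.

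In the other 10 genes presence differed by stage or no peak was called. The organ size gene *ARGOS*, which acts upstream of *ANT*, had a peak at S0 only, as did *AIL5* and *AIL7*. The corepressor gene *SEU* and the meristem gene *STM* had peaks at S0 and S2. The floral meristem identity gene *LFY* had peaks at S2, S4 and S8, at the 9.79, 60.6 and 2.83 percentile, and *FIL*, which acts with *ANT* in organ polarity, had one at S8 only. No peak was called on the boundary genes *CUC1* and *CUC2*, on *BOP1*, on *AG* or on the cytokinin signalling inhibitor gene *AHP6*.

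**Figure D5:**
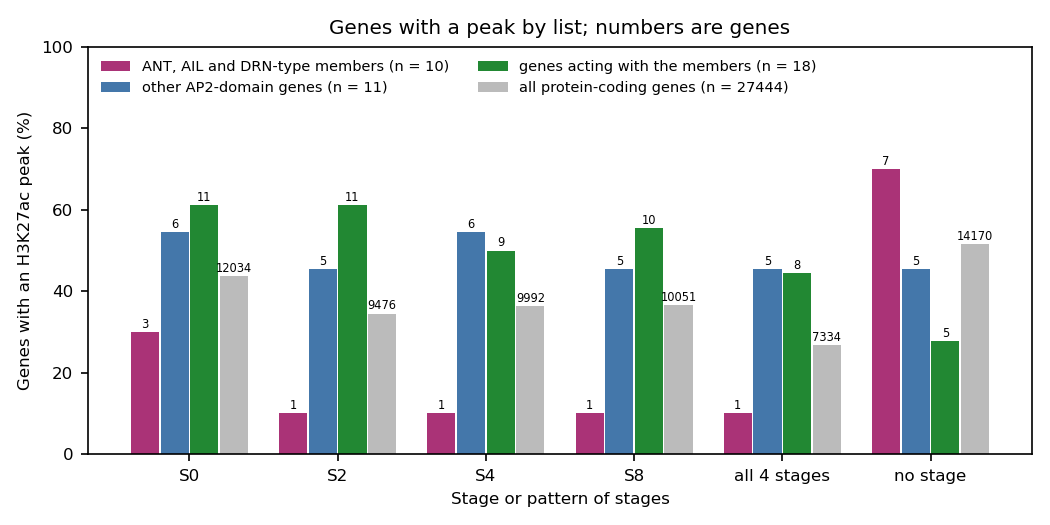
Share of genes with an H3K27ac peak in percent (vertical axis) at S0, S2, S4, S8, at all 4 stages and at no stage, for the 10 members, 11 other AP2-domain genes, 18 genes acting with the members and 27444 protein-coding genes. Numbers over the bars are genes. The members have 3, 1, 1 and 1 genes with a peak at the 4 stages and 7 with none.

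The labelled tissue was checked against markers. Of 7 genes of the inflorescence and flower, 2, 4, 2 and 3 had a peak at the 4 stages in order, shares below those of all genes at S0 and S4. At 1 stage or more 5 of 7 had one, beside 48.4% of all genes: *AP1* at all 4, *LFY* and *STM* as above, *BP* at S2 and *AP3* at S8, while *PI* and *AG* had none. *AP1*, whose promoter is also on the transgene, was at the 0.272, 0.447, 27.6 and 57.8 percentile by fold enrichment at S0, S2, S4 and S8. Its −log10 p ranked higher in every list, with percentiles of 22.9, 35.9, 73.0 and 90.5 in the same order. The authors describe the *AP1* locus as enriched in H3K27ac at all 4 stages. Of 5 root genes, *SHR* had a peak at all stages, 1 of 5 beside 26.7% of all genes. *WOX5*, *RHD6*, *COBL9* and *EXP7* had none, 4 of 5 beside 51.6% of all genes. Both marker lists are short, their shares were not tested, and they do not settle the tissue. Repeated 32-base words made up 0.407% or less of the windows of the 10 members.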

How the data were processed

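H3K27ac ChIP-seq reads were aligned by the authors with Bowtie 1.1.2 to TAIR10, keeping some reads with several places in the genome, although the plants were Ler. Duplicates were removed with Picard 2.60. Peaks were called with MACS2 2.1.0 at a relaxed p limit on pooled replicates against the combined inputs, and kept by reproducibility between replicates. The deposited fold enrichment (a ratio to the control at the summit) and the deposited −log10 p are the authors' values and were used only for ranks within a list, with ties counted as 0.5. Score and −log10 q were not used.

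Gene models were those of RefSeq for TAIR10.1, newer than those of TAIR10 on identical nuclear chromosomes. The 10 members all matched by locus. Where a gene had several peaks, the one with the highest value in the ranking at hand was used. Named genes are all members, all genes of the lists but 1 that is not reported here, and the 2 genes nearest to *ANT* in percentile. *SQE3* and AT5G65520 are named in addition as the sites of the nearest peaks outside a window, and were chosen after their values were seen. The members and lists were chosen with earlier results of these data known. Alternatives were windows of the gene alone or with 2 kb upstream, other placements of peaks, joining of peaks within 500 bp, shorter lists and other rankings. Protein sequences were translated from the reference and not printed. Python 3.11.15, NumPy 2.4.6, pandas 2.3.3 and matplotlib 3.10.9 were used. The placement, ranking and joining of peaks were tested on simulated data.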

Additional observations from a re-analysis of the deposited data

How the results depend on the processing

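Which genes had a peak at each stage did not change with a window of the gene alone or with 2 kb upstream, with the nearest TSS, with the midpoint, with any overlap or with peaks joined within 500 bp. It changed with the length of the lists. With the upper 50% of each list by −log10 p, 1 member (*ANT*) kept a peak at S0, 0 at S2 and 0 at all 4 stages, with 1 peak at S0 and 0 at S2. With the 5000 peaks of highest −log10 p, 0 members had one at S0 and 0 at all 4 stages, with 0 peaks at S0, while *ANT* kept its peak at S2, S4 and S8. In both cases *AIL5* and *AIL7*, at the 35.0 and 1.80 percentile of −log10 p, lost their S0 peaks, and 9 members had no peak at any stage. The changes at *ANT* lie in the construction, since it was at the 53.3 and 49.9 percentile of −log10 p at S0 and S2. With lists held to 8608 peaks, a setting chosen after seeing the data, 2 members had a peak at S0. By fold enrichment times width *ANT* was at the 86.7, 91.2, 91.8 and 97.1 percentile at S0, S2, S4 and S8, with S0 and not S2 the lowest, and *AIL5* was at the 14.0 percentile at S0. No paired analysis was possible because the pooled lists hold no value per replicate, and for the same reason no replicate could be left out. A gene with no peak at this unknown depth is not shown to lack the mark.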
